A study of Homo sapiens with 8 samples.

Results

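The small nuclear RNAs (snRNAs), small nucleolar RNAs (snoRNAs) and small Cajal body RNAs (scaRNAs) are short non-coding RNAs of the nucleus, and their genes were examined here in HEK293T cells treated with 3-deazaneplanocin A (DZNep). HEK293T is an established human embryonic kidney line that carries the large T antigen. DZNep inhibits the hydrolase that removes S-adenosyl-homocysteine, the by-product of methyl transfer. The series holds 8 RNAseq libraries, 4 of cells given 100 µM DZNep for 48 h and 4 of cells given vehicle for 48 h, called Control. All 8 libraries come from the same cell line, and no allele was changed. Libraries with the same replicate number deviated together from their group means, only weakly for replicate 1. Members were chosen by 2 measures, the GENCODE v44 gene type (snRNA, snoRNA or scaRNA) and a summed count of at least 40 over the 8 libraries. This gave 125 genes, made up of 57 snRNA, 64 snoRNA and 4 scaRNA genes, of 2890 such genes among the 57500 in the count table. The sum took both groups together, so it did not use the direction of change. It could still admit a gene through the counts of 1 group. RNU6-781P and RNVU1-1 passed wholly or almost wholly through DZNep counts, and RNU1-67P through Control counts. Among genes near it, the limit thus favoured large changes. Just outside the limit, RNU6-800P (39 counts) had a mean of 10.5 normalized counts in Control and 0.709 with DZNep, and SNORD18 (39 counts) had 3.76 and 5.18. Just inside it, SNORD117 (40 counts) had 2.62 and 6.31, and SNORD127 (40 counts) had 5.93 and 4.38.

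Spliceosomal snRNAs such as U1, U2, U4, U5 and U6 base pair with each other and with the pre-mRNA at splice sites. Most are made by RNA polymerase II and receive a trimethylated cap, while U6 is made by RNA polymerase III. Box C/D snoRNAs guide the addition of methyl groups to the ribose of ribosomal RNA, and box H/ACA snoRNAs guide its pseudouridylation. U3 and U17 (SNORA73) instead take part in cleaving the ribosomal RNA precursor. Most human snoRNAs lie in introns of a host gene and are trimmed from the excised intron, so that host and snoRNA start from the same transcript. The scaRNAs guide the same modifications on snRNAs in Cajal bodies.

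The sequences of the members on which the results turn are shown first, as given for the sense strand by GENCODE v44 on GRCh38. U1 variant genes are shown beside RNU1-1, a canonical U1 gene, with capitals for bases that differ from it. RNVU1-7 (chr1:148038753-148038916, minus strand) differed from RNU1-1 by 1 substitution, T150C, counted from the 5′ end of U1. RNVU1-1 (chr1:148362370-148362533, minus strand) differed by 6, which were C25G, C53A, G93C, A94G, T157G and C161T. Both keep the same first bases, which pair with the 5′ splice site.
RNU1-1: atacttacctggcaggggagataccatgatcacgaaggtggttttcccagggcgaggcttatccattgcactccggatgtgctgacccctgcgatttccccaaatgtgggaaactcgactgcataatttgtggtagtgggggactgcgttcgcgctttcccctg
RNVU1-7: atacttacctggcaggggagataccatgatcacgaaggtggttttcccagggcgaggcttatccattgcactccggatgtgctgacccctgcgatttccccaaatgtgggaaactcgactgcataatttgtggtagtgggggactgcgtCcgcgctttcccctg
RNVU1-1: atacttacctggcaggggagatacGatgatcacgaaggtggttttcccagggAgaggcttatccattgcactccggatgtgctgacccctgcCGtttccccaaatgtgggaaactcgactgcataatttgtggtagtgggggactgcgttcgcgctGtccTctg

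U3 is shown for SNORD3A (chr17:19188016-19188714, plus strand), whose annotated gene of 699 bases begins with the 217 bases given here. The same 217 bases of SNORD3B-1 (chr17:19061912-19062669, plus strand) and SNORD3B-2 (chr17:19063346-19064136, minus strand) differed from it by A78C alone. A U3 copy without a symbol of its own (ENSG00000212195, chr17:58631641-58631836, minus strand) lies in an intron of TEX14 and was 68.3% identical, with capitals for bases that differ from SNORD3A.
SNORD3A, bases 1 to 217: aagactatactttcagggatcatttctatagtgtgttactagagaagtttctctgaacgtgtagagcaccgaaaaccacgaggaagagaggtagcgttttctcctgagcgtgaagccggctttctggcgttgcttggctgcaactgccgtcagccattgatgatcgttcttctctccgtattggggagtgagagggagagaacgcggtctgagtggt
U3 copy in TEX14: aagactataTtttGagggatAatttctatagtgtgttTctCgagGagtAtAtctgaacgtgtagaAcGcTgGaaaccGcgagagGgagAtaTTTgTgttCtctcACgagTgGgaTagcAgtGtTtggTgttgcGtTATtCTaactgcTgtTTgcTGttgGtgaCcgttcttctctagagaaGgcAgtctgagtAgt

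C/D and H/ACA genes other than U3 whose counts changed are shown on the sense strand, with box letters in capitals where present. For C/D genes these are TGATGA within the first 25 bases and CTGA within the last 20 bases. For H/ACA genes they are ACA within the last 6 bases. SNORD63B held no such TGATGA. Among members, 16 of 27 genes with SNORD symbols held that TGATGA (59.3%) and 24 held that CTGA (88.9%), against 66.1% and 90.1% of the 313 SNORD genes of GENCODE v44. ACA stood at the end of 21 of 23 SNORA members (91.3%) and of 81.8% of the 214 SNORA genes. SNORD14A (chr11:17074654-17074744, minus strand) lies in RPS13, SNORD104 (chr17:64146083-64146152, plus strand) in SNHG25 and SNORD63B (chr5:138558970-138559039, minus strand) in HSPA9. SNORA14B (chr1:235127803-235127937, minus strand) lies in TOMM20, SNORA71C (chr20:38429670-38429803, minus strand) in SNHG17, SNORA33 (chr6:132817219-132817348, plus strand) in RPS12 and SNORA73B (chr1:28508559-28508762, plus strand) in the RCC1 and SNHG3 locus.
SNORD14A: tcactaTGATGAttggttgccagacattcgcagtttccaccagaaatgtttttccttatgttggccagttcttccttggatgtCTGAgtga
SNORD104: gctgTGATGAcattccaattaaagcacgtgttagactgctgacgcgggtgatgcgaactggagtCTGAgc
SNORD63B: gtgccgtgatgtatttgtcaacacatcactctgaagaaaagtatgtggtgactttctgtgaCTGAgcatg
SNORA14B: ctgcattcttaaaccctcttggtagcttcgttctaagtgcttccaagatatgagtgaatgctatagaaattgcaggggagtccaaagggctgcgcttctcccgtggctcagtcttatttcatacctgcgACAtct
SNORA71C: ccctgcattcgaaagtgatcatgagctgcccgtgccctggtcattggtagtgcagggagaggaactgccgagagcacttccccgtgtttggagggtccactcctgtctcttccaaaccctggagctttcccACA
SNORA33: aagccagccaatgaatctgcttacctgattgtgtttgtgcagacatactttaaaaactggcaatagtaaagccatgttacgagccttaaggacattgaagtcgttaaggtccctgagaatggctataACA
SNORA73B: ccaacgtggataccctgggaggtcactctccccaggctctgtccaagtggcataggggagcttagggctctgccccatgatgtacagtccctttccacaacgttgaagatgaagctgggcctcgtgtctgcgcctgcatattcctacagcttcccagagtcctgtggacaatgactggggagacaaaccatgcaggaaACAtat

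The libraries held 25043058 to 44902779 counts, and the 125 members together took 28.8 to 69.5 CPM, the count scaled to a common library total. The median member had 72 counts over all 8 libraries, so most values below rest on few reads. Of the members, 101 were shorter than the 150 bases of a sequencing read, with a median length of 117 bases, and only reads with 1 place in the genome were counted. Of 25 canonical snRNA genes found in the table, 6 were listed at 0 in every library, among them RNU2-1 and RN7SK, and 13 held 1 to 39 counts. The values therefore describe reads assigned to single gene copies and their edges, not the amount of mature U1, U2, U3 or U6. Fewer transcripts per cell and a different mix of cells cannot be told apart in such bulk samples. Control replicates 1 and 4 stood apart, with 7.76% and 13.7% of counts from mitochondrial genes against 3.02% and 3.16% in Control replicates 2 and 3. With DZNep these shares were 7.04%, 4.25%, 4.44% and 10.1% in replicates 1 to 4. Values in replicates 2 and 3 alone are given where they change a call or a direction. The kidney and neural genes that HEK293T cells express were present, with 250 to 358 counts of PAX2 and 1876 to 6055 counts of NEFL, while HBB was listed at 0 throughout, ALB had 0 to 8 counts and the leukocyte gene PTPRC had 41 to 90.

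Small RNA genes changed in both directions with DZNep, and how their share of calls compared with that of all genes depended on the filter, the block and the libraries. The edgeR quasi-likelihood test was fitted across all genes, and a gene was called past 2 thresholds, an adjusted p under 0.05 and a log2 fold change beyond 1. Of 19171 genes that passed the filter on low counts, 10.6% were higher and 13.5% were lower. Only 51 members passed that filter, and 8 of them were higher (15.7%) and 9 lower (17.6%). With the replicate number as a block, 10 were higher (19.6%, against 11.7% of all genes) and 15 lower (29.4%, against 14.3%). When every gene with at least 40 counts was tested, all 125 members entered, 13 were higher (10.4%, against 11.1% of 21851 genes) and 18 were lower (14.4%, against 13.0%). The block over these genes gave 15 higher (12%, against 12.5%) and 35 lower (28%, against 14.7%). Replicates 2 and 3 alone gave 14 higher (11.2%, against 11.1%) and 7 lower (5.6%, against 10.9%). With each library left out in turn as well, the count of lower members over these genes ranged from 7 to 35, and that of higher members from 10 (without DZNep replicate 2) to 15. Every DZNep library lay above every Control library for 14 members (11.2%, against 19.1% of genes), and below for 13 (10.4%, against 18.0%).

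By kind, medians ranged from the U1 variants at the top to the scaRNAs at the bottom over all libraries, and the scaRNAs were not lowest in replicates 2 and 3 alone. The median log2 fold change over all 125 members was -0.69, against -0.03 over all 21851 genes, and it was -0.12 in replicates 2 and 3 alone. It was 1.21 for the 6 U1 variants, 0.64 for the 6 canonical snRNA genes and -1.16 for the other 45 snRNA copies. Among snoRNAs it was -0.63 for 29 C/D genes, -0.44 for 23 H/ACA genes and -1.14 for 12 others. The 4 scaRNAs had a median of -1.55, and none was called. In replicates 2 and 3 alone the medians of the U1 variants and the canonical genes were 1.09 and 0.40, while those of the other copies, the C/D genes, the H/ACA genes, the other snoRNAs and the scaRNAs were -0.14, -0.51, 0.37, -0.31 and -0.20. The H/ACA median thus turned sign without replicates 1 and 4. For comparison, 48 miRNA genes and 77 genes of type misc_RNA with at least 40 counts had medians of -0.41 and -0.80 over all libraries.

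**Figure D1:**
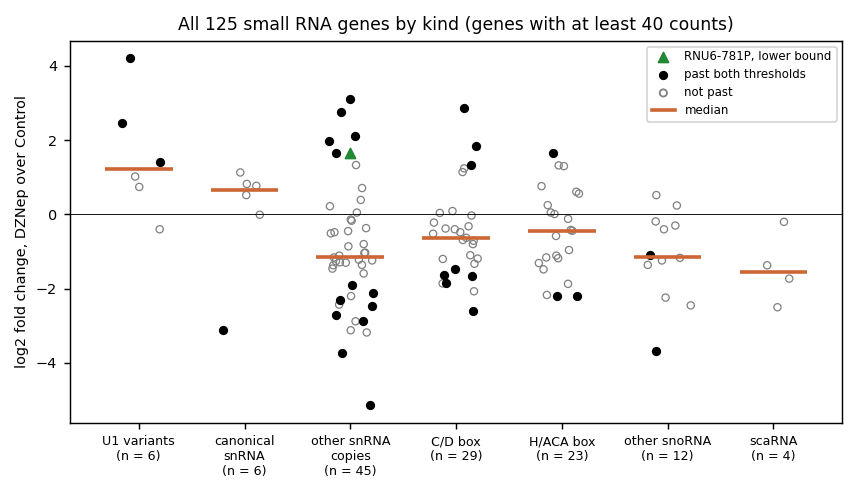
log2 fold change of DZNep over Control (vertical axis) for each of the 125 members, grouped by kind, from the edgeR fit over genes with at least 40 counts. Filled points passed both thresholds, orange lines are medians, and the triangle gives RNU6-781P, with no Control count, at its lower bound. The U1 variants have a median of 1.21 and the scaRNAs of -1.55, which was -0.20 in replicates 2 and 3 alone.

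The members include 6 genes of the U1 variant family (RNVU1), which encode U1-like snRNAs on chromosome 1. Of 3 that passed the filter on low counts, 1 was called higher (33.3%, against 10.6% of all genes). Over genes with at least 40 counts, 3 of the 6 were higher (50%, against 11.1%). With the block over these genes 2 were higher (33.3%, against 12.5%). None was called lower. RNVU1-1 and RNVU1-21, called over genes with at least 40 counts, reached that limit mostly through their DZNep counts. The limit thus favoured a rise, so these shares, the family's median and the sum below are no separate support for a change of the family. RNVU1-7 had 4.62, 3.57, 0.896 and 5.37 normalized counts in Control replicates 1 to 4 and 15.4, 19.3, 14.7 and 31.5 with DZNep. The groups did not overlap. Its log2 fold change was 2.46 ± 0.50 (SE, n = 4 per group, edgeR adjusted p = 0.00309). RNVU1-1 had only 2 counts over the 4 Control libraries and 53 over the 4 DZNep libraries, a ratio of 23 with a 95% counting interval of 6.07 to 195 (exact). RNVU1-21 had 1.54, 2.68, 2.69 and 3.22 normalized counts in Control and 7.26, 5.64, 5.18 and 11.2 with DZNep. It was called over genes with at least 40 counts (edgeR adjusted p = 0.044) but not with the block (edgeR adjusted p = 0.0697), without any 1 library, or in replicates 2 and 3 alone (log2 fold change 0.94, edgeR adjusted p = 0.389), and 67.9% of it overlies an exon on the opposite strand. Whether the counting used strand is not given in the sources used here, so reads of both genes cannot be told apart. The remaining variants were not called, with log2 fold changes of 1.02 for RNVU1-27, 0.74 for RNVU1-15 and -0.40 for RNVU1-26. RNVU1-3, with 38 counts just outside the limit for members, had a mean of 5.01 normalized counts in Control and 4.82 with DZNep. Identity to RNU1-1 was 99.4% for RNVU1-7 and 96.3% for RNVU1-1, and ranged from 74.4% to 91.5% for the other four. Summed over the 6 genes, the variants took 0.599, 0.97, 0.43 and 0.856 CPM in Control and 1.62, 2.36, 1.75 and 2.02 with DZNep. This sum was 2.71 times higher in the mean with no overlap. All RNVU1 genes other than RNVU1-7 are named here as the rest of its family, after their values were seen.

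Counts were higher at the SNORD3 locus, whose genes begin with U3, an RNA needed for early cleavages of the ribosomal RNA precursor. SNORD3A had 32.4, 37.5, 32.2 and 59.1 normalized counts in Control and 66.2, 144, 66.5 and 139 with DZNep. Every DZNep library lay above every Control library, and the log2 fold change was 1.33 ± 0.35 (SE, edgeR adjusted p = 0.0122). SNORD3B-2 rose from 29.3, 11.6, 7.17 and 47.3 to 50.8, 98.3, 60.5 and 136 normalized counts. Its log2 fold change was 1.85 ± 0.55 (SE, edgeR adjusted p = 0.0219), again without overlap, and it missed without DZNep replicate 2 (edgeR adjusted p = 0.0513) or DZNep replicate 4 (edgeR adjusted p = 0.0531). SNORD3B-1 had 43.2, 11.6, 19.7 and 46.2 in Control and 38.1, 75.7, 38.9 and 134 with DZNep, so its groups overlapped. Its log2 fold change of 1.23 missed the threshold (edgeR adjusted p = 0.0884) and passed it with the replicate block (edgeR adjusted p = 0.00988). Summed over the 3 genes, the locus took 2.38 ± 0.885 CPM in Control and 6.95 ± 2.93 with DZNep (SD, n = 4 each), 2.92 times higher. Since these genes differ by at most 1 base in the U3 part shown above, how uniquely placed reads were divided among them is uncertain. The annotated genes span 699 to 791 bases, of which 217 are the U3 part. Reads from the rest of each gene are counted too, so these values do not measure mature U3.

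The U3 copy inside TEX14 rose together with its host. It had 1.54, 1.79, 4.48 and 3.22 normalized counts in Control and 11.8, 26.6, 19.9 and 29.2 with DZNep, with no overlap and a log2 fold change of 2.85 ± 0.47 (SE, edgeR adjusted p = 0.000917). TEX14, a gene known for its role in germ cells, rose from 34.3 ± 7.27 to 356 ± 43.5 normalized counts (n = 4 in each group, ± SD), for a change of 3.35 ± 0.21 on the log2 scale (SE).

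**Figure D2:**
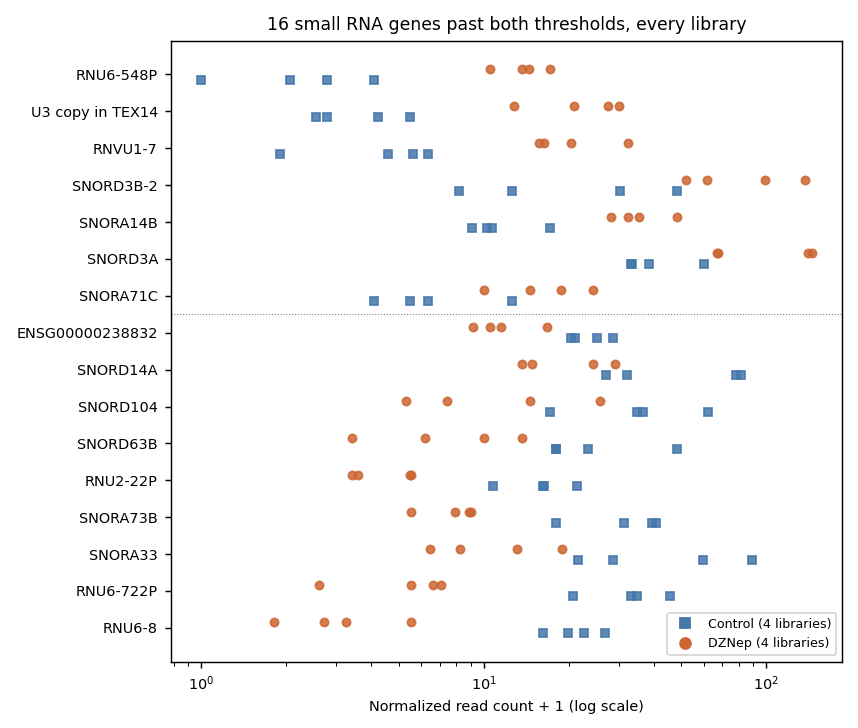
Normalized read count plus 1 (log axis) of 16 of the 17 members past both thresholds, with 1 point per library, squares for Control and circles for DZNep. Genes above the dotted line were higher with DZNep, and the groups of RNVU1-7, SNORD3A, RNU6-8 and SNORA73B do not overlap.

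The H/ACA gene SNORA14B rose while its host TOMM20, a subunit of the mitochondrial import receptor, did not. It had 9.25, 16.1, 8.06 and 9.67 normalized counts in Control and 27.2, 47.5, 34.5 and 31.5 with DZNep, a log2 fold change of 1.66 ± 0.34 (SE, edgeR adjusted p = 0.00326). The groups did not overlap. SNORA71C, one of 3 H/ACA members inside the lncRNA SNHG17, had 3.08, 11.6, 4.48 and 5.37 in Control and 13.6, 17.7, 23.3 and 9 with DZNep. Its groups overlapped, and the log2 fold change of 1.29 ± 0.47 (SE) passed narrowly (edgeR adjusted p = 0.0495) and missed over genes with at least 40 counts (edgeR adjusted p = 0.0665). Without any 1 library other than Control replicate 2 or DZNep replicate 4 it missed as well (edgeR adjusted p = 0.0837 to 0.149). SNORA71B and SNORA71A were not called, with log2 fold changes of 0.61 and 0.01. SNORA71A and SNORA71C lie fully within annotated SNHG17 exons, so that reads of the host and of the snoRNA cannot be told apart there.

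Among U6 copies, single genes rose that lie far from each other. RNU6-548P, in an intron of the amino acid transporter gene SLC1A4, had 3.08, 0, 1.79 and 1.07 normalized counts in Control and 12.7, 16.1, 9.5 and 13.5 with DZNep. Its log2 fold change was 3.14 ± 0.59 (SE, edgeR adjusted p = 0.00202) without overlap, and SLC1A4 fell by 2.24 on the log2 scale. RNU6-781P had no count in any Control library and 8.16, 8.86, 6.91 and 18 normalized counts with DZNep. Against a floor of 3 counts in each Control library this was at least 3.17-fold higher. RNU6-48P and RNU6-574P had log2 fold changes of 2.77 and 2.10 over genes with at least 40 counts (edgeR adjusted p = 0.0131 and 0.0184). In replicates 2 and 3 alone RNU6-48P was still called, while RNU6-574P was not (log2 fold change 1.70, edgeR adjusted p = 0.154). RNU6-781P, RNU6-48P and RNU6-574P were named after their values were seen.

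RNU6-8, one of the U6 genes regarded as active, was lower with DZNep. It had 21.6, 15.2, 18.8 and 25.8 normalized counts in Control and 4.53, 0.805, 1.73 and 2.25 with DZNep, a log2 fold change of -3.10 ± 0.48 (SE, edgeR adjusted p = 0.000615). The groups did not overlap, and in replicates 2 and 3 alone the log2 fold change was -3.69. The U6 pseudogene RNU6-722P had 44.7, 33.9, 19.7 and 32.2 in Control and 4.53, 1.61, 6.05 and 5.62 with DZNep, a log2 fold change of -2.88 ± 0.44 (SE, edgeR adjusted p = 0.000616). It lies outside other genes, and the nearest upstream gene on its strand, KCND1, was 2096 bases away with a log2 fold change of 1.54. RNU2-22P had 15.4, 9.82, 15.2 and 20.4 in Control and 4.53, 2.42, 2.59 and 4.5 with DZNep. It fell by 2.12 on the log2 scale (edgeR adjusted p = 0.00236), and the pseudogene that holds it (ENSG00000283491) fell by 1.19, a call that was lost without Control replicate 1 or 3 or DZNep replicate 1, 2 or 3 (edgeR adjusted p = 0.0567 to 0.0646).

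All 6 snoRNA genes that fell lie inside other genes, and SNORD63B lies within an annotated exon of HSPA9, a mitochondrial chaperone gene. SNORA73B, a U17 snoRNA that acts in cleaving the ribosomal RNA precursor, had 38.5, 30.4, 17 and 39.8 normalized counts in Control and 4.53, 8.05, 6.91 and 7.87 with DZNep. Its log2 fold change was -2.20 ± 0.38 (SE, edgeR adjusted p = 0.00125) without overlap. SNORA33 had 58.6, 27.7, 20.6 and 88.1 in Control and 5.44, 7.25, 12.1 and 18 with DZNep, and fell by 2.22 (edgeR adjusted p = 0.00871). Its 2 highest values were those of Control replicates 1 and 4, and in replicates 2 and 3 alone it fell by 1.35 (edgeR adjusted p = 0.045), or by 1.36 over genes with at least 40 counts (edgeR adjusted p = 0.057). SNORD63B had 17, 17, 22.4 and 47.3 in Control and 12.7, 2.42, 5.18 and 9 with DZNep, and fell by 1.86 (edgeR adjusted p = 0.019, and 0.0628 without DZNep replicate 3). SNORD14A (U14), which both guides methylation and acts in precursor cleavage, had 80.2, 31.2, 26 and 77.4 in Control and 12.7, 23.4, 13.8 and 28.1 with DZNep. It fell by 1.48 (edgeR adjusted p = 0.0252) with overlapping groups, and the call was lost without Control replicate 1 or 4 or DZNep replicate 1 or 3 (edgeR adjusted p = 0.0595 to 0.0799) and in replicates 2 and 3 alone (edgeR adjusted p = 0.266). SNORD104 in SNHG25 fell by 1.63 (edgeR adjusted p = 0.0413) with overlap, and was not called without any 1 library other than Control replicate 2 or DZNep replicate 4 (edgeR adjusted p = 0.0668 to 0.113). The unnamed snoRNA gene ENSG00000238832 in BCAP29 fell by 1.10 (edgeR adjusted p = 0.0206) without overlap, and was not called without Control replicate 2 or 3 or DZNep replicate 1, 2 or 3 (edgeR adjusted p = 0.0511 to 0.0853). Both were named after their values were seen.

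Members called lower only over genes with at least 40 counts were often carried by Control replicates 1 and 4. RNU6-37P in KIF1B had 24, 1, 2 and 97 counts in Control and 5, 0, 1 and 5 with DZNep. RNU1-67P, an X-linked U1 copy in SLC25A43, had 11, 4, 1 and 27 counts in Control and 0, 0, 0 and 1 with DZNep. The C/D gene SNORD99 in SNHG12 did not overlap between groups, with 10, 15, 8 and 20 counts in Control and 0, 4, 3 and 3 with DZNep. Of the 18 lower calls in this fit, 7 remained in replicates 2 and 3 alone, and these were RNU6-8, RNU6-722P, RNU2-22P, SNORA73B, SNORD63B, SNORD104 and ENSG00000238832. Of the 13 higher calls, 11 remained. RNU1-67P and SNORD99 were named after their values were seen.

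Of the canonical snRNA genes, RNU6-8 alone was called. The active U6 gene RNU6-2 had 4.24 ± 0.468 normalized counts in Control and 6.26 ± 1.96 with DZNep (SD, n = 4 each), with overlapping groups. RNU4-2, which encodes U4, had 6.74 ± 3.33 and 11.9 ± 7.28, and RNU5A-1, which encodes U5, had 8.27 ± 3.03 and 14.9 ± 7.63. For RNU4ATAC, the U4 of the minor spliceosome, the counts were 1, 3, 6 and 3 in Control and 9, 17, 3 and 5 with DZNep. RNU5E-1 had a log2 fold change of -0.01. These 5 genes had standard errors of 0.45 to 0.61 on the log2 scale, and at this depth a change of 1 on that scale was about 2 standard errors. Other members with many counts varied more within groups than between them. SNORD17, in SNX5, had 4.62, 64.3, 24.2 and 20.4 normalized counts in Control and 9.98, 53.2, 24.2 and 6.75 with DZNep. The copies RNU6-415P, RNU6-510P, RNU6-516P and RNU6-529P and the snoRNA ENSG00000202343 had log2 fold changes between -0.46 and 0.23, none of them called. SNORA59B in SLC47A1 had 45, 8, 10 and 99 counts in Control and 14, 7, 14 and 20 with DZNep (log2 fold change -1.88, edgeR adjusted p = 0.0944), and passed with the block (edgeR adjusted p = 0.0159) and without Control replicate 2 (edgeR adjusted p = 0.0265) or 3 (edgeR adjusted p = 0.0436). RNU4ATAC18P showed the same spread, with 31, 2, 7 and 90 counts in Control and 9, 3, 5 and 17 with DZNep, and was called lower with the block (edgeR adjusted p = 0.00482) and without Control replicate 2, but not over all libraries without the block (edgeR adjusted p = 0.115).

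The scaRNAs were the smallest class. SCARNA12 in PHB2, with 124 counts, has the gene type snoRNA and is counted among the other snoRNAs (log2 fold change -0.40, edgeR adjusted p = 0.434). SCARNA4, in KHDC4, had 24, 0, 3 and 44 counts in Control and 0, 2, 1 and 12 with DZNep, so that 2 libraries held most of its Control counts. SCARNA7 in KPNA4 had 10, 2, 4 and 43 counts in Control and 6, 3, 4 and 8 with DZNep, and SCARNA20 in USP32 had 8, 7, 3 and 19 against 5, 4, 3 and 5. SCARNA13 in SNHG10 had 4, 10, 11 and 5 against 7, 4, 15 and 4. Annotated exons on the same strand cover 99.2% of SCARNA4 and 100% of SCARNA13, and 46.2% of SCARNA13 overlies an exon on the opposite strand. Reads of these exons and of the scaRNAs cannot be told apart there. None of the 4 was called in the fit over genes with at least 40 counts, and with the block SCARNA4 was (edgeR adjusted p = 0.0212). Summed, they took 1.84, 0.461, 0.532 and 2.72 CPM in Control and 0.436, 0.29, 0.575 and 0.802 with DZNep. Without replicates 1 and 4 the largest log2 difference left was -0.64.

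Median changes of members differed by position. Of the 125, 86 lay inside another gene on the same strand, 13 on the opposite strand of a gene and 26 outside other genes. Those inside a gene had a median log2 fold change of -1.13, those on the opposite strand -0.44, and those outside 0.04. Inside a gene 7 were higher (8.14%, against 11.1% of all genes with at least 40 counts) and 14 lower (16.3%, against 13.0%). Outside other genes 5 were higher (19.2%) and 2 lower (7.69%). In replicates 2 and 3 alone the medians were -0.21, 0.12 and 0.41. Members inside a gene then had 6 higher (6.98%, against 11.1% of all genes) and 5 lower (5.81%, against 10.9%). The 86 members inside genes took 35.8, 21.1, 18.4 and 49.5 CPM in Control and 15.6, 18.9, 17.8 and 24.1 with DZNep. Control replicates 1 and 4 were thus about as far above Control replicates 2 and 3 as above the DZNep libraries. These are the libraries with the larger mitochondrial share among Controls, although DZNep replicates 1 and 4 also had larger shares than DZNep replicates 2 and 3, and the part of these differences in the result was not tested. The 26 members outside genes took 10.4, 6.23, 6.43 and 14.1 CPM in Control and 9.61, 14.7, 9.88 and 19 with DZNep.

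**Figure D3:**
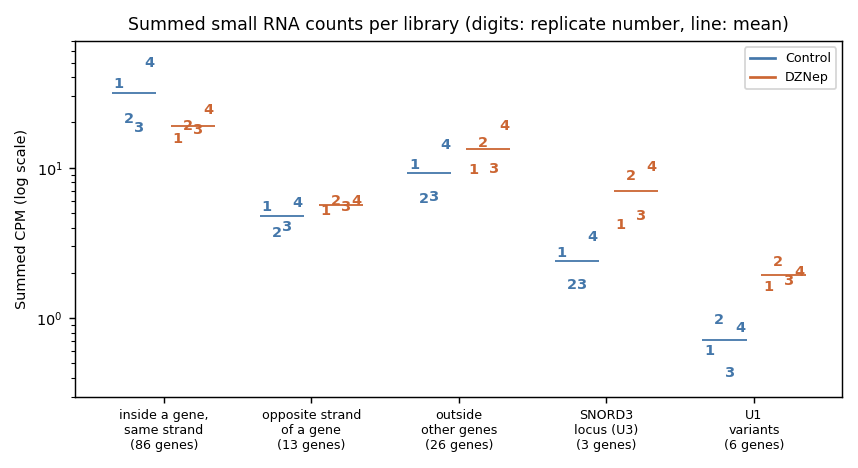
Summed CPM (log axis) of members by position and of 2 families, with each library drawn as its replicate number, blue for Control and orange for DZNep, and lines for means. Control replicates 1 and 4 hold the most counts inside genes (35.8 and 49.5), while the SNORD3 locus and the U1 variants separate the groups. RNVU1-1 and RNVU1-21 reached the limit of 40 counts mostly through DZNep.

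Most host genes did not pass the test. The 86 members lie in 77 host genes, of which 75 were tested, 2 were higher and 13 lower (2.67% and 17.3%, against 10.6% and 13.5% of all genes tested), and the median log2 fold change was -0.28, against -0.03. Replicates 2 and 3 alone gave 3 higher and 10 lower among 75 hosts tested, where 11.9% of 19425 genes were higher and 12.1% lower. The higher hosts over all libraries were TEX14 and SNHG10, and SNHG10 had 196 ± 65.9 normalized counts in Control against 429 ± 128 with DZNep (SD, n = 4 each). Without Control replicate 1 or 3 or DZNep replicate 2 the log2 fold change of SNHG10 was 0.96 to 0.97, just under the limit of 1. Of 9 hosts that encode ribosomal proteins, 3 were lower (33.3%, against 13.5% of all genes tested) and none was higher. These were RPL3, RPL12 and RPL27A, by 1.10, 1.14 and 1.31 on the log2 scale, and the block gave 3 lower as well. The groups of RPL3 did not overlap, while those of RPL12 and RPL27A did, with Control replicates 1 and 4 highest. RPL27A had 64724, 30568, 34821 and 83612 normalized counts in Control and 22367, 16671, 17081 and 31855 with DZNep. Of 7 lncRNA hosts of the SNHG family, counted with ZFAS1, 3 were lower and 1 was higher, where 24.1% of all lncRNA genes tested were lower and 13.9% higher. ZFAS1 fell by 1.55 and SNHG17 by 1.33. Across the 84 pairs of a member and a tested host, the log2 fold changes had the same sign in 54, both below 0 in 44 and both above 0 in 10. Across these pairs Pearson's r was 0.23 and Spearman's rho 0.15, as a description of pairs that share libraries and hosts. In 59 pairs the member's log2 fold change lay below that of its host, with a median difference of -0.71. In replicates 2 and 3 alone the member lay below its host in 42 of the 84 pairs, with a median difference of -0.03, and the sign was the same in 49.

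**Figure D4:**
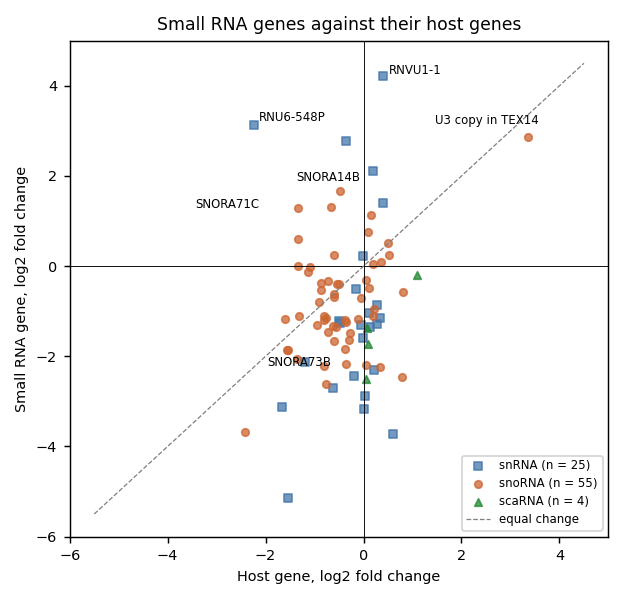
log2 fold change of each member (vertical axis) against that of its host gene (horizontal axis) for 84 pairs, with the dashed line for equal change. RNU6-548P (3.12 against -2.24), RNVU1-1 and SNORA14B lie above the line, and SNORA73B (-2.20 against 0.04) below it.

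For named members, the count was set against that of the host in each library as log2((member + 0.5)/(host + 0.5)). Depth cancels in this ratio where counts are well above the added 0.5. Groups were compared with a two-sided exact permutation test. With 4 libraries a group the smallest possible p was 0.0286. Of 28 pairs, 7 reached it, and after Benjamini-Hochberg adjustment over the 28 pairs their p was 0.114, so no pair passed. RNU6-548P, SNORA14B, SNORA73B and RNU2-22P were named because their counts did not overlap between these same groups. That choice favoured the smallest p, which is no separate support for their change. RNU6-548P moved furthest against its host, from -10.23 ± 1.55 to -4.98 ± 0.60 (SD, n = 4 each) relative to SLC1A4, a difference of 5.25 (exact permutation p = 0.0286). Its Control counts were 2, 0, 2 and 1, so the added 0.5 weighs on its Control ratios and the size of this difference is uncertain. SNORA14B relative to TOMM20 rose from -10.57 ± 0.43 to -8.48 ± 0.29, a difference of 2.09 without overlap. RNVU1-1 and RNVU1-21 rose by 3.51 and 0.89 relative to LINC01138, the lncRNA that holds both, and this host was looked at after its values were seen. With only 2 counts of RNVU1-1 over the 4 Control libraries, its difference has the same limit. SNORA73B fell by 2.15 relative to RCC1, the exchange factor of the GTPase Ran, and by 1.05 relative to SNHG3, a lncRNA at the same locus whose own normalized count fell from 1728 ± 321 to 831 ± 92.2 (SD, 4 libraries a group). The ratios of RNU6-516P and RNU2-22P to the genes that hold them fell by 1.35 and 0.91. RNU6-516P itself was not called (log2 fold change -0.38, edgeR adjusted p = 0.623). The gene that holds it had too few counts to be tested. It had 7.71, 3.57, 3.58 and 5.37 normalized counts in Control and 19, 8.86, 7.77 and 16.9 with DZNep. In replicates 2 and 3 alone, with no test, the differences in ratio were -0.61 for RNU6-516P and -1.14 for RNU2-22P, and that of RNVU1-21 was 0.52. The U3 copy differed by -0.61 relative to TEX14 with overlapping groups (exact permutation p = 0.2).

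Hosts with 3 members showed unequal values within a transcript. In SNHG17, which fell, the ratios of SNORA71A, SNORA71B and SNORA71C to the host were 1.32, 1.93 and 2.61 higher with DZNep (exact permutation p = 0.0571 each), with overlap between the groups. In RPS12, which fell by 0.81, the differences were -1.26 for SNORA33, -0.57 for SNORD100 and -0.07 for SNORD101 (exact permutation p = 0.0857, 0.543 and 0.943), and in replicates 2 and 3 alone they were -0.46, 0.62 and -0.34. In GNL3, a nucleolar GTP-binding protein gene that fell by 0.60, they were 0.32 for SNORD19, -0.10 for SNORD19C and -0.89 for SNORD69 (exact permutation p = 0.8, 0.914 and 0.143), and in replicates 2 and 3 alone 0.00, -0.22 and -0.49.

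**Figure D5:**
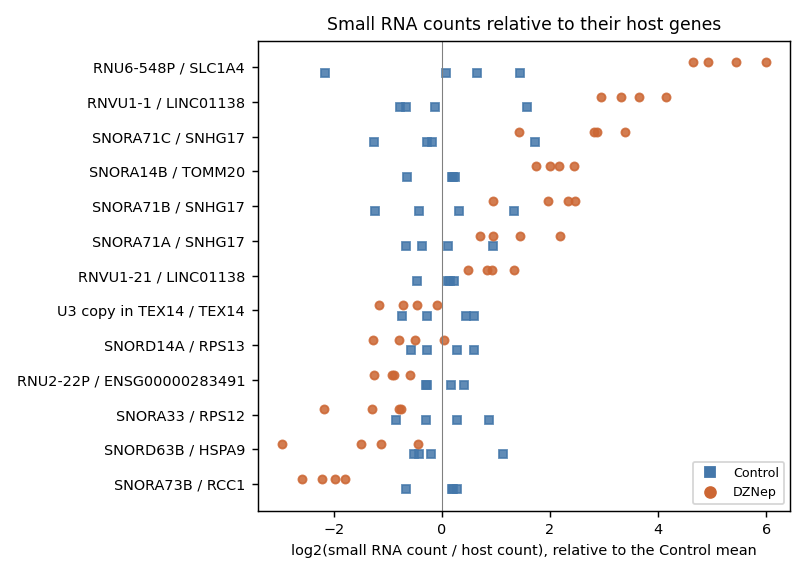
log2 of the small RNA count over the host count in each library, relative to the Control mean (horizontal axis), for 13 pairs, with squares for Control and circles for DZNep. The circles of RNU6-548P, RNVU1-1 and SNORA14B lie to the right of all squares of their row, and those of SNORA73B to the left.

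Genes for the proteins that make, modify and carry these RNAs were mostly not called. Of 141 such genes in 10 lists, all were tested, 4 were higher and 7 lower (2.84% and 4.96%, against 10.6% and 13.5% of all genes tested), and the median log2 fold change was -0.09. HEXIM1, which holds the kinase P-TEFb on 7SK RNA, rose from 1708, 1636, 1197 and 2564 to 7672, 9185, 6905 and 9055 normalized counts, a log2 fold change of 2.18 ± 0.23 (SE, edgeR adjusted p = 8.24e-05). PUS7, a pseudouridine synthase, fell from 1492, 1464, 1520 and 1265 to 248, 260, 255 and 317, a change of -2.44 ± 0.15 on the log2 scale (SE, edgeR adjusted p = 4.93e-06). METTL4, which methylates adenosine in U2, fell by 1.30. Both groups were fully apart for each of these 3 genes.

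In transcription and 3′ end formation, 1 of 23 genes was higher and 1 lower. BRF2, a factor for RNA polymerase III at U6-type promoters, had 301 ± 159 normalized counts in Control against 852 ± 147 with DZNep (SD, n = 4 each), and INTS8, a subunit of the Integrator complex that cleaves snRNA precursors, fell by 1.10. PHAX, the adaptor for nuclear export of capped snRNAs, rose from 3036 ± 528 to 6428 ± 418, the only call among 8 genes of cap modification, export and import. CLNS1A, an Sm protein chaperone, fell by 1.09 as the only call among 13 genes of the SMN complex and methylosome. Of 20 snRNP particle proteins, SNRPA (the A protein of the U1 particle) fell by 1.31 and PDCD7 (of the U11/U12 particle) by 1.06. RUVBL1, an assembly ATPase, fell by 1.04 and was the only call among 12 C/D genes. RBM7, of the nuclear exosome targeting complex, rose by 1.09 and was the only call among 23 trimming and decay genes. None of the 8 H/ACA core and assembly genes, 8 Cajal body genes and 17 Sm and LSm genes was called past both thresholds by edgeR, and 3, 2 and 5 of them had an adjusted p under 0.05. The 3 H/ACA genes went in both directions. DKC1, the pseudouridine synthase, fell by 0.59 (edgeR adjusted p = 0.0108), while NOP10, a core protein, rose by 0.82 (edgeR adjusted p = 0.0262) and SHQ1, an assembly factor, rose by 0.89 (edgeR adjusted p = 0.000562). The calls of PHAX, RUVBL1, PDCD7 and RBM7 lay close to the fold limit of 1 on the log2 scale. Leaving out 1 library took PHAX to 0.98 (Control replicate 3) or just under 1 (Control replicate 2), RUVBL1 to -0.97 (Control replicate 2) or -0.96 (DZNep replicate 3), PDCD7 to -0.80 (Control replicate 4) or -0.93 (DZNep replicate 2), and RBM7 to 0.94 (Control replicate 4) or 0.99 (DZNep replicate 2).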

How the data were processed

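RNA of the 8 HEK293T cultures was sequenced as paired reads of 150 bases. The authors made the deposited raw count table with Trimmomatic 0.36 for trimming, STAR 2.5.2b for alignment to GRCh38, and featureCounts (Subread 1.5.2), which kept reads of unique position within exons. Its annotation release, strand setting and RNA selection are not given in the sources used here. The authors' deposited normalized values, a signal per gene, equal these counts divided by DESeq2 size factors to within 2.1e-09 for 19118 genes, and the same factors gave the normalized counts here. Multiple copies of one RNA lose reads under unique counting.

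Gene types, hosts and sequences came from GENCODE v44, which held 56410 of 57500 identifiers. A host was the containing gene on the same strand with the most summed counts. The main fit was edgeR 4.0.16 (R 4.3.3) with filterByExpr, TMM and the quasi-likelihood test, without a block, with Benjamini-Hochberg adjustment over 19171 genes. It was tested on simulated data first. Alternatives used DESeq2 1.42.0, limma 3.58.1 (voom), other scalings, filters and the replicate number as a block. Same-numbered libraries deviated together (correlations 0.136, 0.492, 0.429 and 0.673), so the numbers pair the samples. The study describes the replicates as biological. Members, gene lists and the rule for named genes were chosen with earlier results of these data known. Named were canonical snRNAs, the 8 members with most counts per class, the 6 largest non-overlapping changes in each direction, their hosts, hosts with at least 3 members and called protein genes. Intervals and floors cover counting error only, and 3 counts were 6.68e-06% to 1.2e-05% of a library. The files matched their labels with 0 columns of other samples. Some sequences and 1 member called higher, which the naming rule included and which had the smallest adjusted p of all members, are not reported here.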

Additional observations from a re-analysis of the deposited data

Results flagged for a closer look

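In a group of 4 libraries, a value was singled out when its gap to the nearest other library took most of the group's range (above the 95% critical value of Dixon's test), which chance does in about 1 of 20 groups. This was looked for in 74 groups, and 2 values met it, which is no more than that rate would give. SCARNA4 had 13.5 normalized counts in DZNep replicate 4 and 0 to 1.61 in the other DZNep libraries, a gap of 0.881 of the range. The 57 snRNA members together took 18.8 CPM in DZNep replicate 4 and 12.4 to 13.5 in the other DZNep libraries, a gap of 0.834 of the range. DZNep replicate 4 also had the largest mitochondrial share of the DZNep libraries, 10.1%, and its part in these values was not tested.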

How the results depend on the processing

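Leaving out each library in turn gave 6 to 10 higher and 7 to 14 lower members in the fit with the filter, and 10 to 13 and 9 to 24 over genes with at least 40 counts. For snRNA members these counts were 3 to 5 and 3 to 4 (7 to 8 and 4 to 14), for snoRNA members 3 to 5 and 4 to 10 (3 to 5 and 4 to 11), and for lower scaRNA members 0 to 1 in both. Host genes gave 1 to 3 higher and 8 to 16 lower, and protein genes 3 to 6 higher and 6 to 11 lower. The filter decided how many members could be called. At least 40 counts gave 13 higher and 18 lower members (snRNA 9 and 9), no filter 13 and 19 (snRNA 8 and 10), and at least 10 counts in every library 2 and 1 (snRNA 1 and 0, snoRNA 1 and 1). Over genes with at least 40 counts, DESeq2 gave 13 and 23 (snRNA 8 and 11, snoRNA 12 lower), library sizes alone 13 and 17 (snRNA 9 and 8), and replicates 2 and 3 alone 14 higher (snRNA 8). With the filter, replicates 2 and 3 alone gave 5 higher snRNA members. The replicate block raised the lower members from 9 to 15 (snRNA 6), and over genes with at least 40 counts it gave 15 higher and 35 lower (snRNA 9 and 18, snoRNA 16 lower, scaRNA 1 lower). Without the fold limit, 25 hosts were lower, and 20 protein genes were higher and 21 lower. The combinations with at least 40 counts and the use of replicates 2 and 3 alone were chosen after seeing the data. A pseudocount of 5 moved the ratio of the U3 copy to TEX14 to -1.55 (exact permutation p = 0.0286) and that of RNU2-22P to its host to -0.36 (exact permutation p = 0.0857). With 4 pairs an exact test within replicate numbers cannot go below 0.125, so the ratios have no paired test. Among genes that were not called, the sign turned in replicates 2 and 3 alone for RNU6-516P (0.48), SNORA59B (0.09), KPNA4 (-0.07) and USP32 (-0.06), and RNU6-529P came to 0.00 with limma-voom and with the replicate block. Leaving out 1 library turned RNU6-516P (-0.68 to 0.05), RNU6-529P (-0.70 to 0.64), RNU6-415P (-0.25 to 0.04), SNORD17 (-1.08 to 0.45), ENSG00000202343 (-0.23 to 0.79), KHDC4 (-0.02 to 0.14), KPNA4 (-0.08 to 0.19), USP32 (-0.09 to 0.29) and RCC1 (-0.06 to 0.15). Causes were not tested, apart from the number of genes each filter admits. With a median of 72 counts per member over 8 libraries, depth limits most of these values.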
